A study of Homo sapiens with 8 samples.

Results

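Potassium channel genes were taken as every protein-coding gene of the count table whose symbol begins with KCN and a further letter, which gave 97 of the 19903 protein-coding genes and of the 67060 genes in all. Of these, 40 encode pore-forming subunits of voltage-gated channels, 16 inward rectifiers, 15 two-pore channels and 8 calcium-activated channels and their sodium-activated relatives, and 18 encode auxiliary subunits. RNA was sequenced from SH-SY5Y, an established human neuroblastoma line, 48 h after the cells received 0.5 ul of an adenovirus. In the ERRg group (4 libraries) the virus carried BioID-Flag-ERRg, which joins a biotin ligase used for proximity labelling and a Flag tag to estrogen-related receptor gamma, an orphan nuclear receptor encoded by ESRRG. In the GFP group (4 libraries) it carried BioID-GFP-NLS, the ligase joined to a green fluorescent protein that is sent to the nucleus. Both groups therefore received an adenovirus and a BioID fusion, no untreated cells were analysed here, and the labels do not say whether the 4 libraries of a group came from separate cultures. The p-values thus measure the spread between these libraries, which may be technical.

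Potassium channels let potassium leave the cell down its gradient, which holds the membrane near its resting potential and ends each action potential. Voltage-gated members open on depolarisation, inward rectifiers and two-pore channels carry current near rest, and calcium-activated members tie the current to intracellular calcium. Pores are built from several alpha subunits around a shared selectivity filter, and cytoplasmic or membrane-bound auxiliary subunits set their gating and traffic. In neurons and neuroblastoma cells the mixture of subunits decides how readily a cell fires, and the ERG current carried by KCNH2 is a known feature of neuroblastoma lines.

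The selectivity filter is the part that the pore-forming members share, and its codons also show how far these genes differ in base composition, a property with which the fold changes below moved. The following coding stretches of 45 bases were read from the longest GENCODE release 29 transcript, 5′ to 3′, with the 5 codons of the filter in capitals.
KCND1: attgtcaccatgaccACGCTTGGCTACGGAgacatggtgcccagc
KCNH2: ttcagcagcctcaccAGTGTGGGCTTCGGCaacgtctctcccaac
KCNV2: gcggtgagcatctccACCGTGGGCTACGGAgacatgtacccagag
KCNJ13: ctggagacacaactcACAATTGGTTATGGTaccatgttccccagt
KCNQ5: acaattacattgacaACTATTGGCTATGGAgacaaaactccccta
The third codon position was G or C in 86.7% of codons of the KCNH2 and KCNV2 stretches and in 80.0% of those of KCND1, against 46.7% in KCNJ13 and 26.7% in KCNQ5. Over the whole transcript the GC content was 66.8% for KCNH2, 59.3% for KCNV2, 57.6% for KCND1, 45% for KCNQ5 and 37.5% for KCNJ13.

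ERRg binds the nuclear receptor core motif AGGTCA, usually with an extension on its 5′ side, so the promoters of the members were searched for these letters. RefSeq (GRCh38.p14) gave 110 promoter windows of 300 bases for 72 members, 35 of them tested below. The core motif, read on both strands, lay in 8 of these windows (7.27%), against 13.8% of all 35116 windows. The extended form TNAAGGTCA, which contains the core motif, lay in 1 member window (0.909%, in KCNJ16) against 0.951% of all windows, and TCAAGGTCA, a special case of it, lay in 0 member windows against 0.353% of all. The stretches of 60 bases around the core motif, in capitals on either strand, are shown for the 4 tested members that hold it and for KCNJ16, written along the strand of the gene.
KCNAB2, chr1:6034470-6034529, plus strand, 191 bases upstream of an internal start site: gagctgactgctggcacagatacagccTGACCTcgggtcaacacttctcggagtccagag
KCNIP4, chr4:21697838-21697897, minus strand, 130 bases upstream of an internal start site: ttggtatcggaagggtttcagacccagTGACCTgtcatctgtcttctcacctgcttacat
KCNJ14, chr19:48455480-48455539, plus strand, 67 bases upstream of a start site: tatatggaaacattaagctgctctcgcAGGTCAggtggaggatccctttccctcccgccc
KCNMA1, chr10:77350772-77350831, minus strand, 43 bases upstream of an internal start site: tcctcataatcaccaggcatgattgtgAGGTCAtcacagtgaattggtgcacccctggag
KCNJ16, chr17:70075091-70075150, plus strand, 107 bases upstream of an internal start site: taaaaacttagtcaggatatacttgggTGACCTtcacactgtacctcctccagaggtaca
With TMM normalisation KCNIP4 was higher in ERRg, KCNAB2 and KCNJ14 were lower, KCNMA1 was not called and KCNJ16 was not tested. A match is a description of these windows and says nothing of binding.

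Per library, genes received 21.02 to 23.0 M reads in ERRg and 27.7 to 35.5 M reads in GFP, and 42 members had at least 10 reads in every library. ESRRG itself checks the labels and was far higher in every ERRg library (808 ± 73.2 CPM in ERRg, 34.9 ± 2.34 CPM in GFP, SD over 4 libraries, p = 0.0286 in an exact permutation test on 2 sides, which can give no smaller value here). Virus-borne and cellular ESRRG reads were counted together. CPM means counts per M reads of the TMM-scaled library, and errors after ± are SDs over the 4 libraries of a group. Reads that fell outside the annotated exons were 46.7% ± 1.31 of an ERRg library and 20.9% ± 3.58 of a GFP library. The 15 noradrenergic neuroblast markers summed to 1031 to 1216 CPM per library in ERRg and 1926 to 2239 CPM in GFP (1 higher, 8 lower, with TH and CHGA listed at 0 in all libraries). The 8 fibroblast or mesenchymal markers summed to 909 to 1008 CPM in ERRg and 1636 to 1827 CPM in GFP (1 higher, 6 lower, none at 0), and the 4 epithelial markers to 171 to 242 CPM in ERRg and 236 to 316 CPM in GFP (0 higher, 2 lower). The 6 Schwann or glial markers summed to 4.1 to 5.08 CPM in ERRg and 5.72 to 6.60 CPM in GFP (1 higher, 2 lower), and the 3 blood markers stayed at 0 to 0.247 CPM in ERRg and 0 to 0.18 CPM in GFP, with CD3E at 0. These differences accompany every result below. The share of reads outside exons was used as a covariate in a fit given at the end, and the part of the other differences was not tested. In bulk RNA, fewer cells of a type and less RNA per cell cannot be told apart.

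Of the 97 members, 48 passed the filter on low counts and were tested. In 41 of them both groups reached the filter, in 4 ERRg alone and in 3 GFP alone, and these 7 had to differ to be tested. At an edgeR adjusted p under 0.05 with TMM, 16 members were higher in ERRg, 24 lower and 8 not called, against 38.7% of all genes tested called higher and 35.9% called lower (74.6% in either direction). All genes tested include non-coding genes, while every member is coding, so these shares are not those of coding genes alone. In the same fit, 46.97% of the 7516 coding genes with a GC content under 50% were higher and 27.26% lower. Of the 5910 at 50% or more, 5.84% were higher and 80.32% lower. With most genes of the table called, the member counts are read against these backgrounds and not as a property of the family. The libraries of the groups did not overlap in 35 members, 14 with ERRg above and 21 with ERRg below (33.9% and 34.6% of all genes tested). Against a log2 fold change of 1, 5 members remained called higher and 8 lower (7.67% and 10.5% of all genes).

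The split between higher and lower depended on the scaling. It was 16 to 24 with TMM, 21 to 17 with upper-quartile factors (50.2% and 27.5% of all genes), 22 to 16 with library totals (53.6% and 24.5%), and 15 to 13 with a GC offset alone (34.3% and 38.2% of coding genes). The median log2 fold change of the tested members was -0.34 with TMM, -0.04 by upper-quartile factors and 0.07 by library totals, while that of all genes tested moved with it, at 0.09, 0.40 and 0.50. These scalings shift every gene alike, so they leave the gap between members and all genes as it is. In the fit of coding genes alone the medians were -0.03 for members and 0.02 for coding genes.

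Fold changes fell as the GC content of the gene rose. Over the 48 tested members Spearman's rho between log2 fold change and GC content was -0.56, and over all 13426 coding genes tested it was -0.695, a description across genes that share the same 8 libraries. Among the 27 members with a GC content of 50% or more, 20 were lower and 5 higher (KCNK9, KCNV2, KCNA7, KCNJ11 and KCNT1), while 80.32% of coding genes in that range were lower and 5.84% higher. Among the 21 members under 50%, 11 were higher and 4 lower, against 46.97% and 27.26% of coding genes. A second fit therefore used, for each library, an offset fitted on GC content, transcript length and gene span. With these offsets rho over the members was -0.084, the median log2 fold change was 0.05 (-0.04 over all coding genes), and 17 members were higher, 18 lower and 13 not called (32.9% and 38.8% of the 13426 coding genes). Between the fits, 11 members were higher in both and 14 lower in both. A further 4 changed direction. KCNT2 among them was higher with TMM and lower with the offsets, and KCNH2 and KCNJ14 were lower with TMM and higher with the offsets.

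**Figure D1:**
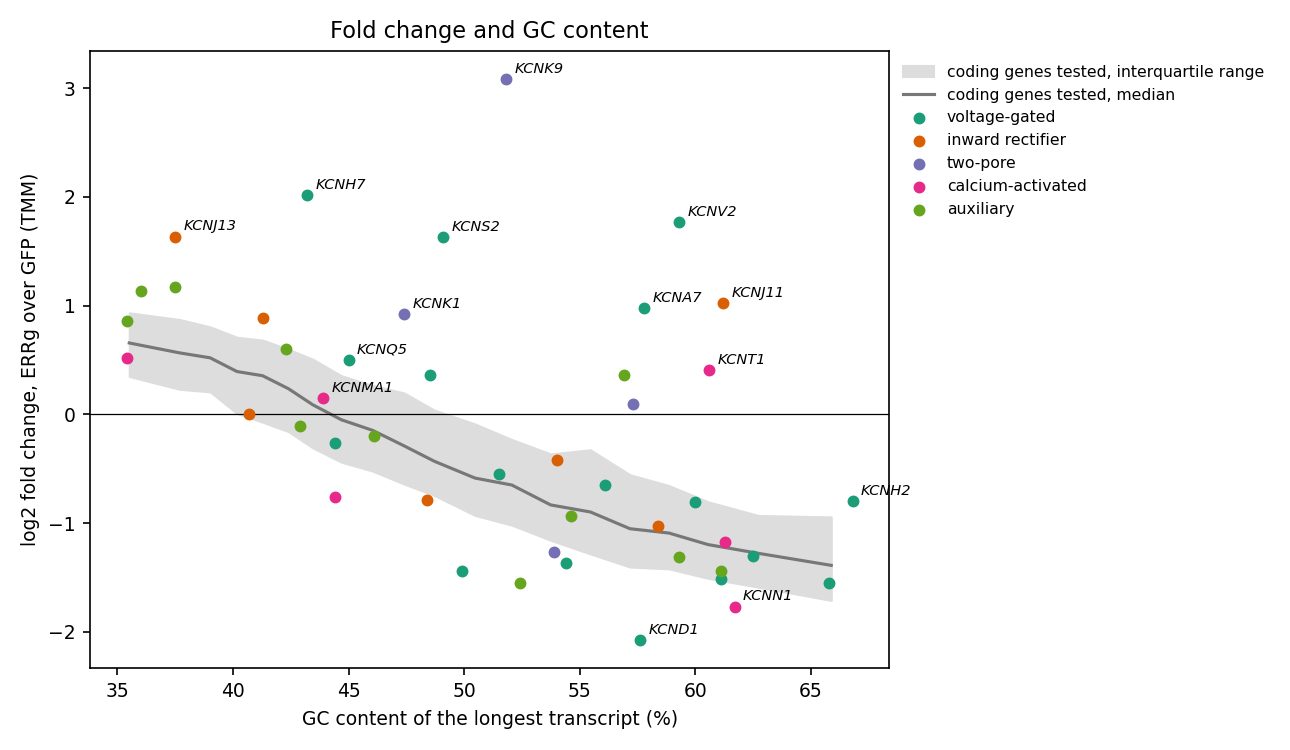
Log2 fold change (ERRg over GFP, TMM) of 45 of the 48 tested members against the GC content of their longest transcript in percent, coloured by class, with the median and interquartile range of all tested coding genes in grey. KCNK9, KCNV2, KCNA7, KCNJ11 and KCNT1 lie above zero at a GC content of 50% or more, where most coding genes lie below it.

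In 7 fits (TMM, the offsets, a GC offset alone, DESeq2 size factors, upper-quartile factors, library totals and coding genes alone) 10 members were called higher and 10 lower every time, against 18.1% and 22.1% of the 13426 coding genes. The 10 higher ones were KCNK9, KCNH7, KCNV2, KCNJ13, KCNS2, KCNJ11, KCNA7, KCNK1, KCNQ5 and KCNT1. The lower ones included KCND1, KCNN1, KCNIP1, KCNC1, KCNAB2, KCNH1, KCNG1, KCNK6 and KCNJ8. Among these, KCNS2 and KCNJ11 reached the filter in ERRg alone and KCNIP1 in GFP alone. They had to differ to be tested, so their calls carry less weight.

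**Figure D2:**
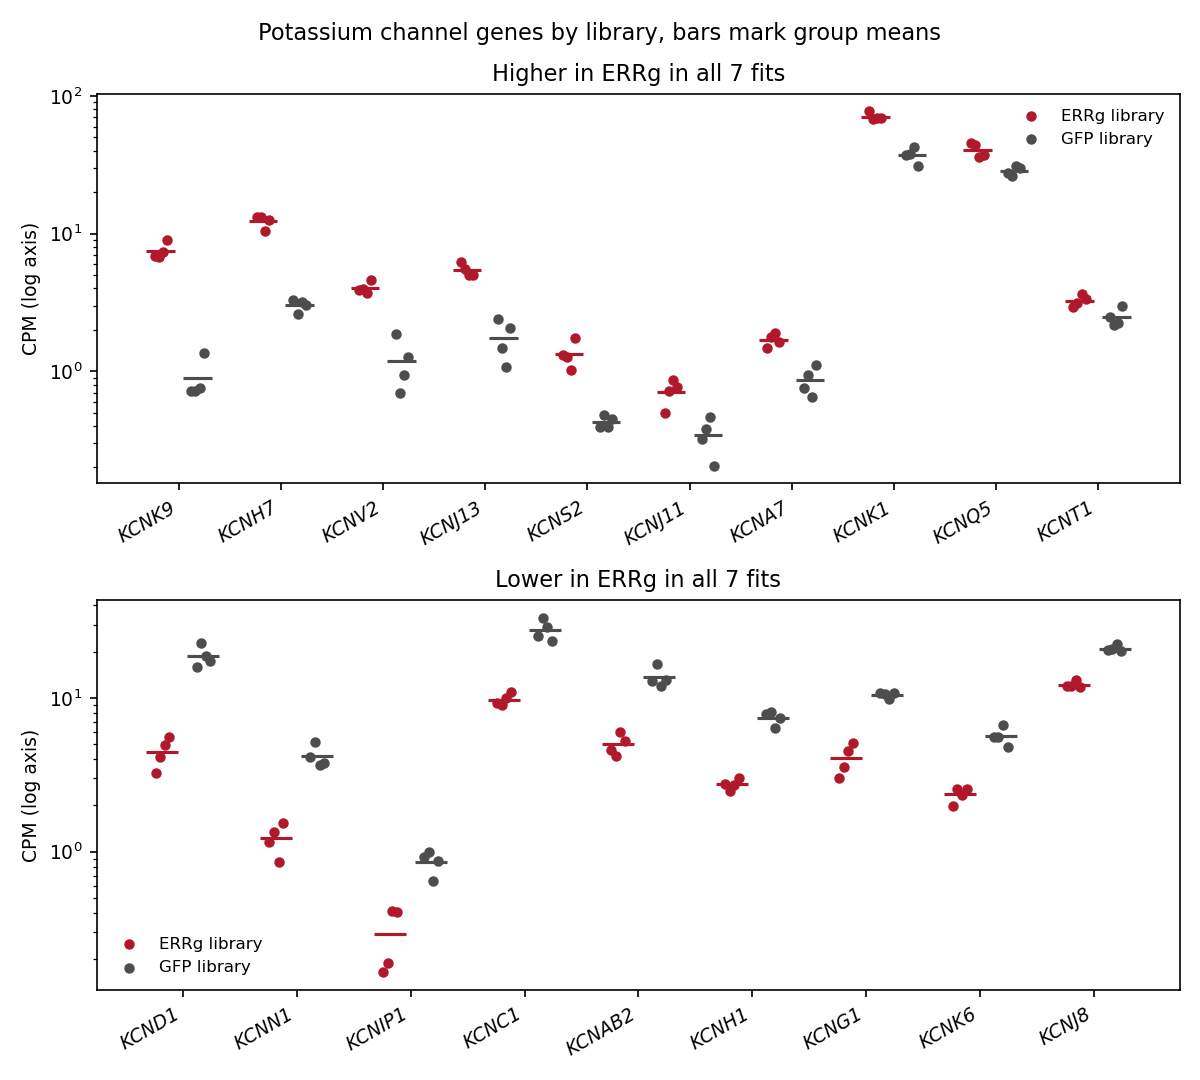
CPM (TMM-scaled, log axis) of 19 of the 20 members called the same way in all 7 fits, 1 point per library, ERRg left of GFP, with bars at the group means. The groups are apart for each gene except KCNT1, whose lowest ERRg library (2.92 CPM) lies below the highest GFP library (2.96 CPM). KCNS2 and KCNJ11 reached the filter in ERRg alone and KCNIP1 in GFP alone.

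**Figure D3:**
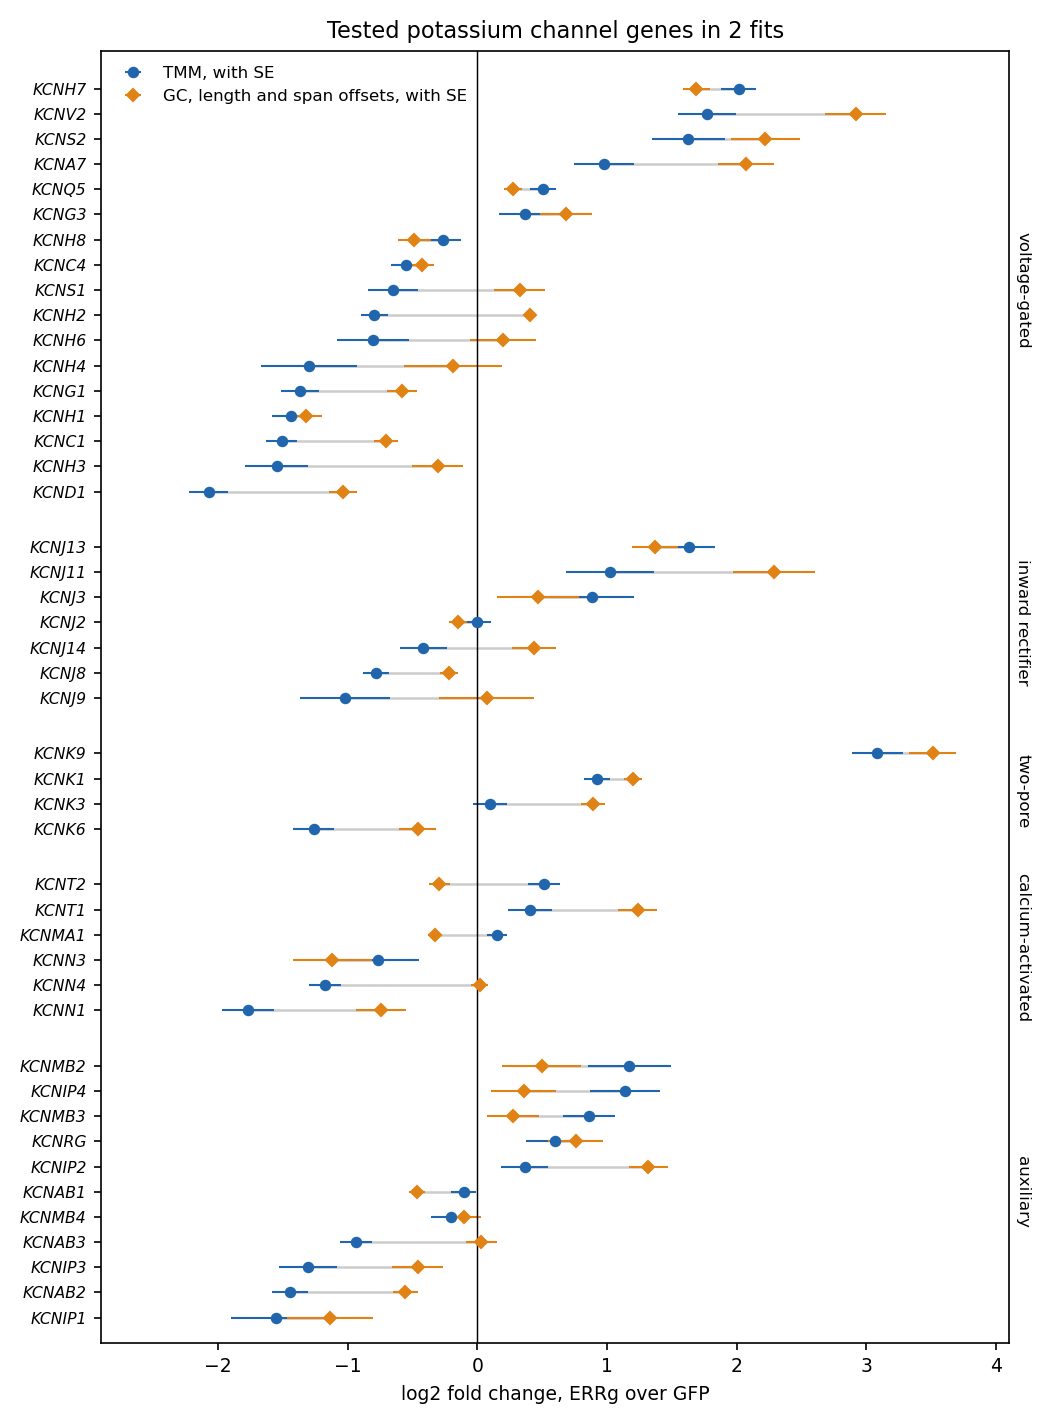
Log2 fold changes (ERRg over GFP) of 45 of the 48 tested members by class, with TMM (circles) and with the GC, length and span offsets (diamonds), bars showing the SE. The grey line joins the values of a gene, and for KCNH2, KCNJ14 and KCNT2 the calls lie on opposite sides of zero.

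Of the 40 genes for voltage-gated channels, 20 were tested. With TMM 5 were higher, 13 lower and 2 not called, and with the offsets 8 were higher, 8 lower and 4 not called. Of the 20, 13 had a GC content of 50% or more and 11 of these were lower with TMM, a range in which 80.32% of coding genes were lower. With TMM the counts of this and the other classes stand against 38.7% of all genes called higher and 35.9% lower, non-coding genes included. With the offsets they stand against 32.9% and 38.8% of coding genes. The counts are not read as a trait of a class. The members called lower every time included the A-type subunit KCND1 and the fast delayed rectifier KCNC1, and those called higher every time included the ERG-family subunit KCNH7 and the silent subunits KCNV2 and KCNS2.

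KCNQ5 encodes a subunit of the M-current, which restrains repetitive firing. It had 45.3, 44.1, 35.7 and 37.3 CPM in ERRg libraries 1 to 4, against 27.6, 26.0, 30.9 and 30.1 CPM in GFP libraries 1 to 4. The lowest ERRg library was thus above the highest GFP library. On the log2 scale the change was 0.50 (SE 0.10, adjusted p = 0.00015) with TMM and 0.28 (SE 0.07) with the offsets. Per kilobase of exon KCNQ5 stood at 5.37 CPM per kb in ERRg and 3.78 in GFP. KCNQ1 and KCNQ3 were not tested and reached 15 and 12 reads.

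KCND1, a Shal-family subunit of the transient A-type current (chromosome X from 48961378 to 48971569 on GRCh38), had 3.25, 4.13, 4.92 and 5.53 CPM in ERRg, against 15.9, 22.8, 18.8 and 17.5 CPM in GFP. The groups lay far apart. The log2 fold change was -2.07 (SE 0.15, adjusted p = 2.63e-10) with TMM and -1.04 (SE 0.11) with the offsets. The Shal genes KCND2 and KCND3 were not tested, KCND2 being listed at 0 and KCND3 reaching 19 reads. KCNC1, a Shaw-family subunit of the fast delayed rectifier that allows high firing rates, had 9.22, 8.98, 9.93 and 10.9 CPM in ERRg, against 25.3, 33.2, 28.9 and 23.5 CPM in GFP. KCNC1 fell by 1.51 on the log2 scale (SE 0.12, adjusted p = 6.37e-10) with TMM, and its value with the offsets was -0.70 (SE 0.09). KCNC4, a gene of the same family, had a log2 fold change of -0.55 with TMM and -0.42 with the offsets, called lower in both fits, although it was not called with library totals (-0.15) or with the GC offset alone (0.03).

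The ether-a-go-go family (KCNH) split. KCNH7, an ERG subunit found mainly in the nervous system (chromosome 2 from 162371407 to 162838730), had 13.1, 13.1, 10.4 and 12.5 CPM in ERRg, against 3.32, 2.62, 3.17 and 3.05 CPM in GFP. Each ERRg library held over 3 times the CPM of any GFP library, and the log2 fold change was 2.02 (SE 0.13, adjusted p = 1.19e-10) with TMM and 1.69 (SE 0.10) with the offsets. KCNH2, the ERG subunit that also repolarises the heart (chromosome 7 from 150944961 to 150978315), was the voltage-gated gene with the highest level per kilobase, at 10.2 CPM per kb in ERRg and 17.7 in GFP. It had 50.5, 54.1, 71.2 and 63.7 CPM in ERRg, against 105, 113, 94.1 and 103 CPM in GFP. The groups did not overlap on this scale. This gave a log2 fold change of -0.79 (SE 0.10, adjusted p = 8.86e-07) with TMM and 0.41 (SE 0.05, adjusted p = 3.78e-07) with the offsets, so that its direction rests on the correction. KCNH2 had the highest GC content of the tested members, 66.8%.

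KCNH1, the ether-a-go-go channel proper and a gene often expressed in tumours, had 2.76, 2.48, 2.71 and 3.01 CPM in ERRg, against 7.81, 8.14, 6.37 and 7.41 CPM in GFP. Its fold change barely moved between fits, at -1.44 (SE 0.14, adjusted p = 1.5e-08) with TMM and -1.32 (SE 0.13) with the offsets. Genes of the opposite strand and of the same strand overlap its exons, the largest overlap being 36.87% of its exon length. KCNH3 was lower with TMM at -1.55 (SE 0.24) and was not called with the offsets at -0.31 (SE 0.20). KCNH4 and KCNH6 were likewise lower with TMM (-1.30 and -0.80) and not called with the offsets (-0.19 and 0.20). KCNH8 was not called with TMM (-0.26) and was lower with the offsets (-0.49). KCNH5 was listed at 0.

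Silent subunits form no channel alone and modify the channels of other voltage-gated subunits. KCNV2 (chromosome 9 from 2717502 to 2730037) had 3.91, 3.98, 3.69 and 4.63 CPM in ERRg, against 1.86, 0.690, 0.936 and 1.28 CPM in GFP. The groups did not overlap, and the log2 fold change was 1.77 (SE 0.23, adjusted p = 5.68e-07) with TMM and 2.92 (SE 0.23) with the offsets. KCNS2 had 1.32, 1.28, 1.03 and 1.75 CPM in ERRg, against 0.392, 0.483, 0.396 and 0.453 CPM in GFP. It reached the filter in ERRg alone, so that it could be tested only because it was higher there, and its log2 fold change was 1.63 (SE 0.28) with TMM and 2.22 (SE 0.26) with the offsets. KCNG1 went the other way, with 3.0, 3.57, 4.51 and 5.12 CPM in ERRg, against 10.7, 10.6, 9.86 and 10.7 CPM in GFP (log2 fold change -1.37, SE 0.15, and -0.58, SE 0.11, with the offsets). KCNG3 was not called with TMM (0.37) and was higher with the offsets (0.69). KCNS1 was lower with TMM (-0.65) and not called with the offsets (0.33). KCNA7 was the only Shaker-family gene tested. It had 1.48, 1.77, 1.89 and 1.63 CPM in ERRg, against 0.749, 0.931, 0.648 and 1.11 CPM in GFP (log2 fold change 0.98, SE 0.23, adjusted p = 0.000782, and 2.07, SE 0.22, with the offsets).

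Of the 16 inward rectifier genes, 7 were tested. With TMM 3 were higher (KCNJ13, KCNJ11 and KCNJ3), 3 lower (KCNJ8, KCNJ14 and KCNJ9) and KCNJ2 was not called, and with the offsets 3 were higher, 1 lower and 3 not called. KCNJ13, a weakly rectifying channel best known from epithelia such as the retinal pigment epithelium, had 6.17, 5.56, 4.97 and 5.04 CPM in ERRg, against 2.39, 1.48, 1.08 and 2.06 CPM in GFP. No GFP library reached the ERRg range, and the log2 fold change was 1.63 (SE 0.20, adjusted p = 2.38e-07) with TMM and 1.37 (SE 0.17) with the offsets. KCNJ13 (chromosome 2 from 232766464 to 232776568) lies on the opposite strand to GIGYF2, whose exons cover 24.25% of its exon length, and the sources used here do not give the strand setting of the counting.

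The ATP-sensitive channels are built from KCNJ11 or KCNJ8 pores with a sulfonylurea receptor, and they link metabolism to excitability. KCNJ11 was low, with 0.494, 0.714, 0.862 and 0.772 CPM in ERRg, against 0.321, 0.380, 0.468 and 0.206 CPM in GFP. The groups were just apart, the gene reached the filter in ERRg alone, and its log2 fold change was 1.02 (SE 0.34, adjusted p = 0.0104) with TMM and 2.29 (SE 0.32) with the offsets. ABCC8, the sulfonylurea receptor that pairs with KCNJ11, is no KCN gene and comes from a list of 44 partner genes. It had 8.85, 8.34, 10.6 and 11.1 CPM in ERRg, against 1.64, 0.724, 1.37 and 1.11 CPM in GFP. Its log2 fold change of 3.0 (SE 0.19, adjusted p = 8.88e-11) was close to that of KCNK9, and with the offsets it was 3.68 (SE 0.16). The pair are neighbours on chromosome 11, KCNJ11 from 17385859 to 17389331 and ABCC8 from 17392498 to 17476879, with 3166 bases between them. KCNJ8, the other ATP-sensitive pore, fell. It had 11.9, 11.9, 13.1 and 11.7 CPM in ERRg, against 20.3, 20.7, 22.6 and 20.2 CPM in GFP, without overlap. Its log2 fold change was -0.78 (SE 0.10, adjusted p = 4.68e-07) with TMM and -0.22 (SE 0.07, adjusted p = 0.00903) with the offsets. ABCC9, the receptor that pairs with KCNJ8 and lies beside it on chromosome 12, was at 0.60 (SE 0.12) with TMM and -0.07 (SE 0.11) with the offsets, called higher in the first fit and not called in the second. On the CPM scale ABCC9 had 11.2, 10.2, 9.93 and 9.68 in ERRg, against 6.10, 7.14, 7.88 and 5.84 in GFP.

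KCNJ2, the classical strong inward rectifier that clamps the resting potential, was the most abundant inward rectifier by CPM. It had 31.4, 31.7, 30.4 and 29.8 CPM in ERRg, against 28.9, 25.7, 35.8 and 33.1 CPM in GFP. The ERRg libraries lay inside the GFP range, with a log2 fold change of 0.00 by TMM (SE 0.10, adjusted p = 0.996) and -0.15 (SE 0.07) with the offsets, and by upper-quartile factors (0.30) or library totals (0.40) it was called higher. Of the G-protein-gated subunits, KCNJ3 stood at 0.783 ± 0.204 CPM in ERRg and 0.421 ± 0.105 CPM in GFP (log2 fold change 0.88, SE 0.32). It was called higher with TMM, not with the offsets (0.47), and not with ERRg replicate 4 (0.69) or GFP replicate 1 (0.65) left out. KCNJ9 stood at 0.348 ± 0.136 CPM in ERRg and 0.717 ± 0.126 CPM in GFP (-1.02, SE 0.35). It was called lower with TMM, not with the offsets (0.07), and not without ERRg replicate 3 (-0.81). Each reached the filter in 1 group alone. KCNJ14 overlapped between groups and was called lower with TMM at -0.42 (SE 0.18, adjusted p = 0.0466) and higher with the offsets at 0.43 (SE 0.17, adjusted p = 0.0282). The TMM call of KCNJ14 was lost without ERRg replicate 1, 2 or 4 or without GFP replicate 2 or 4, at log2 fold changes of -0.45 to -0.38.

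Of the 15 genes for two-pore channels, 4 were tested. With TMM KCNK9 and KCNK1 were higher, KCNK6 lower and KCNK3 not called, and with the offsets the first 3 kept their direction and KCNK3 was higher. These channels are open at rest and carry the background leak of potassium. KCNK9, an acid-sensitive leak channel of neurons, had the largest fold change of all 48 tested members (chromosome 8 from 139600838 to 139704109). It had 6.83, 6.76, 7.35 and 8.94 CPM in ERRg, against 0.714, 0.724, 0.756 and 1.36 CPM in GFP. The ERRg mean of 7.47 ± 1.02 CPM was 8.41 times the GFP mean of 0.888 ± 0.314 CPM, and 3 of the 4 GFP libraries lay close together below the fourth. The log2 fold change was 3.09 (SE 0.20, adjusted p = 1.02e-10) with TMM and 3.51 (SE 0.18, adjusted p = 4.8e-12) with the offsets, and it stayed between 2.91 and 3.27 with each library left out in turn. KCNK3, the nearest relative of KCNK9, had 6.5, 6.87, 9.32 and 8.46 CPM in ERRg, against 7.60, 7.28, 7.05 and 7.12 CPM in GFP. Its groups overlapped and its log2 fold change was 0.10 (SE 0.13, adjusted p = 0.5) with TMM, but 0.89 (SE 0.10) and called higher with the offsets. The levels of the pair per kilobase were thus close in ERRg, at 1.10 CPM per kb for KCNK9 and 1.25 for KCNK3, and apart in GFP, at 0.131 and 1.17.

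KCNK1, a weakly conducting leak channel, had the highest level per kilobase of all 97 members in ERRg and over both groups together, while in GFP KCNH2 stood above it (17.7 CPM per kb). KCNK1 had 77.5, 67.6, 68.7 and 69.2 CPM in ERRg, against 37.5, 38.0, 42.5 and 31.2 CPM in GFP, a difference much wider than the spread within either group. Per kilobase this made 19.5 CPM in ERRg, against 10.3 CPM in GFP. The log2 fold change was 0.92 (SE 0.10, adjusted p = 4.8e-08) with TMM and 1.2 (SE 0.07) with the offsets. KCNK6, its close relative, had 1.97, 2.55, 2.34 and 2.56 CPM in ERRg, against 5.60, 5.55, 6.66 and 4.82 CPM in GFP, without overlap. The fitted log2 fold change was -1.26 (SE 0.16, adjusted p = 4.37e-07) with TMM and -0.46 (SE 0.14) with the offsets. The remaining 11 two-pore genes stayed at or below 18 reads in any library.

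Of the 8 genes for calcium-activated channels and their relatives, 6 were tested. With TMM KCNT1 and KCNT2 were higher, KCNN1, KCNN3 and KCNN4 lower and KCNMA1 not called, and with the offsets 1 was higher, 4 lower and 1 not called. KCNMA1, the pore of the large-conductance BK channel, had the highest CPM of all members and supplied 83.4% of the summed CPM of its class. It had 255, 265, 269 and 280 CPM in ERRg, against 237, 234, 242 and 250 CPM in GFP. The groups were just apart, by an amount smaller than the range within ERRg. On the log2 scale the change was 0.15 (SE 0.08, adjusted p = 0.0897) with TMM, -0.33 (SE 0.06, adjusted p = 2.73e-05) with the offsets, and 0.45 by upper-quartile factors and 0.55 by library totals, where it was called higher. The value was above zero in 6 of the 7 fits and below it in the fit with the GC, length and span offsets.

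The small-conductance channel KCNN1, which shapes the pause after an action potential, fell. It had 1.15, 1.35, 0.862 and 1.54 CPM in ERRg, against 4.14, 5.17, 3.67 and 3.79 CPM in GFP. The log2 fold change was -1.77 (SE 0.20, adjusted p = 9.01e-08) with TMM and -0.74 (SE 0.19, adjusted p = 0.00186) with the offsets, and the groups did not overlap. KCNN3 stood at 0.616 ± 0.162 CPM in ERRg and 1.05 ± 0.362 CPM in GFP, with overlapping libraries. It was lower at -0.76 (SE 0.31, adjusted p = 0.0322) with TMM and -1.12 (SE 0.30) with the offsets, and the TMM call was lost without ERRg replicate 1 (-0.65) or 3 (-0.71) or without GFP replicate 2 (-0.61). KCNN4, the intermediate-conductance channel better known from blood and epithelial cells, had 11.7, 12.4, 17.3 and 15.5 CPM in ERRg, against 30.1, 38.2, 29.3 and 30.7 CPM in GFP. It was lower with TMM at -1.17 (SE 0.13, adjusted p = 4.37e-08) and at 0.02 (SE 0.06, adjusted p = 0.804) with the offsets, although its groups did not overlap on the CPM scale. KCNN2 was not tested and reached 2 reads.

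The sodium-activated genes behaved differently between fits. KCNT2 had 26.6, 26.97, 22.2 and 23.2 CPM in ERRg, against 19.8, 14.4, 14.9 and 20.3 CPM in GFP, with ERRg above. This gave a log2 fold change of 0.51 (SE 0.12, adjusted p = 0.000711) with TMM and -0.29 (SE 0.08, adjusted p = 0.00296) with the offsets. KCNT2 has a GC content of 35.4%, which with KCNMB3 is the lowest among the tested members. KCNT1, with a GC content of 60.6%, had 2.92, 3.12, 3.65 and 3.33 CPM in ERRg, against 2.50, 2.17, 2.23 and 2.96 CPM in GFP. Its libraries overlapped, and its log2 fold change was 0.40 (SE 0.17, adjusted p = 0.0348) with TMM and 1.24 (SE 0.15) with the offsets. The TMM call of KCNT1 was lost without any 1 of ERRg replicates 2, 3 and 4 or GFP replicates 1, 2 and 3, at log2 fold changes of 0.27 to 0.41.

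Of the 18 auxiliary genes, 11 were tested. With TMM KCNMB2, KCNMB3, KCNIP4 and KCNRG were higher, KCNIP1, KCNIP3, KCNAB2 and KCNAB3 lower and 3 not called, and with the offsets 2 were higher (KCNIP2 and KCNRG), 4 lower and 5 not called. KCNAB1, KCNAB2 and KCNAB3 encode cytoplasmic beta subunits of Shaker-type channels. KCNAB2 had 4.57, 4.21, 5.99 and 5.24 CPM in ERRg, against 12.9, 16.6, 11.9 and 13.0 CPM in GFP, without overlap. Its log2 fold change was -1.44 (SE 0.14, adjusted p = 9.64e-09) with TMM and -0.55 (SE 0.10) with the offsets. KCNAB3 had 4.77, 4.96, 4.92 and 4.72 CPM in ERRg, against 10.2, 8.56, 8.82 and 9.51 CPM in GFP. It was lower with TMM at -0.94 (SE 0.12, adjusted p = 7.07e-07) and not called with the offsets at 0.03 (SE 0.12). KCNAB1, the most abundant auxiliary gene, had 26.99, 28.9, 25.4 and 27.2 CPM in ERRg, against 27.8, 27.6, 33.9 and 27.5 CPM in GFP. Its groups overlapped, and its log2 fold change was -0.11 (SE 0.10, adjusted p = 0.331) with TMM and -0.47 (SE 0.06), called lower, with the offsets, but 0.20 with upper-quartile factors.

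The KChIP genes encode calcium-binding subunits of the Shal channels. KCNIP1 was near the floor of the test, with 0.165, 0.188, 0.410 and 0.407 CPM in ERRg, against 0.928, 1.00, 0.648 and 0.864 CPM in GFP. It reached the filter in GFP alone, and its log2 fold change was -1.55 (SE 0.35, adjusted p = 0.000526) with TMM and -1.13 (SE 0.33) with the offsets. KCNIP3, also known as a calcium-sensitive transcriptional repressor, stood at 1.21 ± 0.417 CPM in ERRg and 3.01 ± 0.353 CPM in GFP. It was lower at -1.31 (SE 0.22, adjusted p = 2.5e-05) with TMM and -0.46 (SE 0.20, adjusted p = 0.0429) with the offsets, and with the GC offset alone it was not called. KCNIP4 was higher with TMM (1.14, SE 0.27) and not called with the offsets (0.36). KCNIP2 was not called with TMM (0.36) and was higher with the offsets (1.32). Of the BK beta subunits, KCNMB2 (1.17) and KCNMB3 (0.86) were higher with TMM and not called with the offsets (0.50 and 0.28), and KCNMB4 was not called in either (-0.20 and -0.10). Exons of other genes cover 37.90% of those of KCNMB3 (PIK3CA, opposite strand) and 32.13% of those of KCNMB2. KCNRG, which hinders the assembly of voltage-gated channels, shares 66.83% of its exon length with TRIM13 on the same strand, so its reads are uncertain. It was higher at 0.60 with TMM and 0.76 with the offsets, and the TMM call was lost without ERRg replicate 2 (0.50) or GFP replicates 1, 2 or 3 (0.42 to 0.49). The KCNE genes, small membrane subunits that pair with KCNQ1, were not tested, KCNE4 reaching 12 reads.

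Summed over the class, the 40 voltage-gated genes gave 161, 165, 175 and 176 CPM in ERRg, against 249, 269.9, 239 and 247 CPM in GFP. The sum was lower in ERRg by 82.2 CPM, of which KCNH2 made the largest part, since without it the sums were 109 ± 3.49 CPM in ERRg and 147 ± 5.99 CPM in GFP. The 15 two-pore genes summed to 89.6 ± 3.65 CPM in ERRg and 52.9 ± 5.36 CPM in GFP, with KCNK1 supplying 75.9% of the total, and without it the sums were 18.8 ± 2.45 CPM in ERRg and 15.6 ± 0.758 CPM in GFP. Over all members of each class, both differences kept their direction with DESeq2 size factors, upper-quartile factors and library totals. The sums without the top member are given with TMM alone. There the two-pore libraries overlapped, with 16.2 CPM in ERRg replicate 1 and 16.4 CPM in GFP replicate 3. No sum used the offsets. The calcium-activated sums were 311 ± 11.03 CPM in ERRg and 298 ± 7.77 CPM in GFP, a difference that turned to -0.882 CPM with DESeq2 size factors. Without KCNMA1 they were 44.1 ± 0.854 CPM in ERRg and 57.2 ± 4.38 CPM in GFP. The inward rectifiers summed to 53.6 ± 1.29 CPM in ERRg and 59.1 ± 4.84 CPM in GFP, and the auxiliary genes to 56.1 ± 2.09 CPM in ERRg and 69.7 ± 1.91 CPM in GFP. The inward rectifier difference turned positive with upper-quartile factors (6.38 CPM) and library totals (10.2 CPM), and the auxiliary one with library totals (3.90 CPM). These sums are descriptions with no test (SD, n = 4 each).

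**Figure D4:**
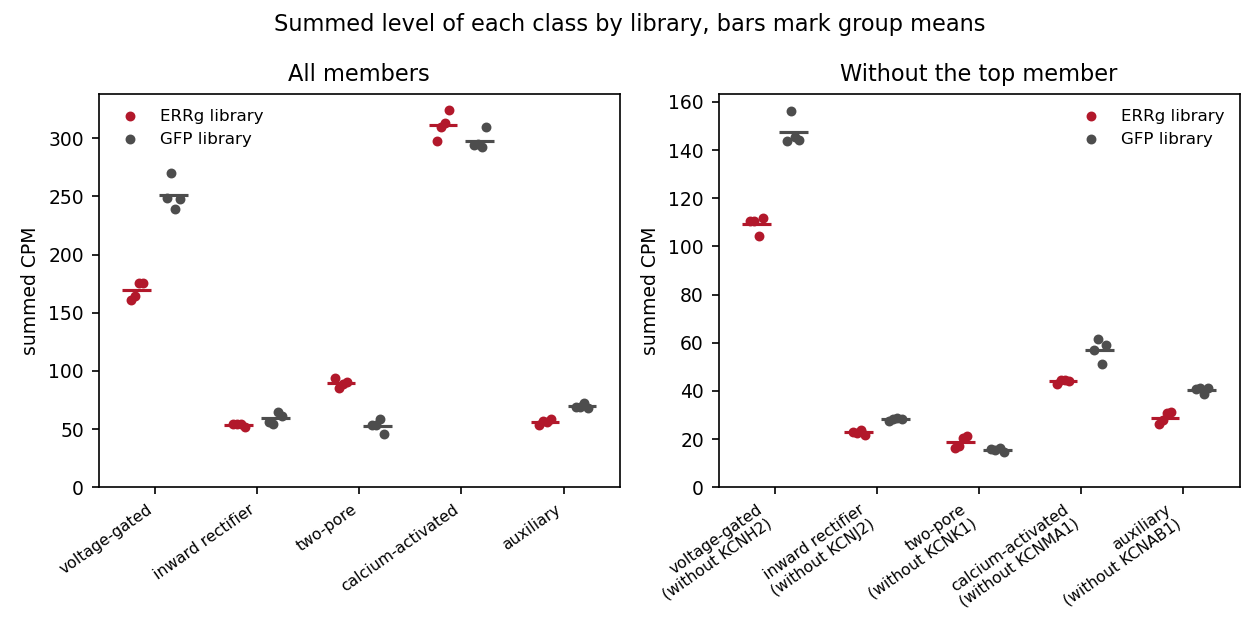
Summed CPM of each class by library (left) and without its most abundant member (right), ERRg left of GFP, bars at the group means, both axes starting at 0. The mean two-pore sum lies higher in ERRg and the mean voltage-gated sum lower in both panels, although the two-pore libraries overlap on the right. For the sums over all members these directions hold with 4 scalings. The signs of the calcium-activated, inward rectifier and auxiliary differences depend on the scaling.

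Levels were compared between genes per kilobase of annotated exon, averaged over the 8 libraries. KCNK1 came first with 14.9 CPM per kb, followed by KCNH2 (13.9), KCNMA1 (7.12), KCNN4 (6.80), KCNJ8 (6.66), KCNJ2 (5.53), KCNQ5 (4.58), KCNAB1 (4.11) and KCNT2 (2.96). The order differed between groups at the top, with KCNK1 at 19.5 and KCNH2 at 10.2 CPM per kb in ERRg, against 10.3 and 17.7 in GFP. Neighbours such as KCNJ2 and KCNQ5 in ERRg (5.53 and 5.37) did not differ beyond the spread of their libraries.

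**Figure D5:**
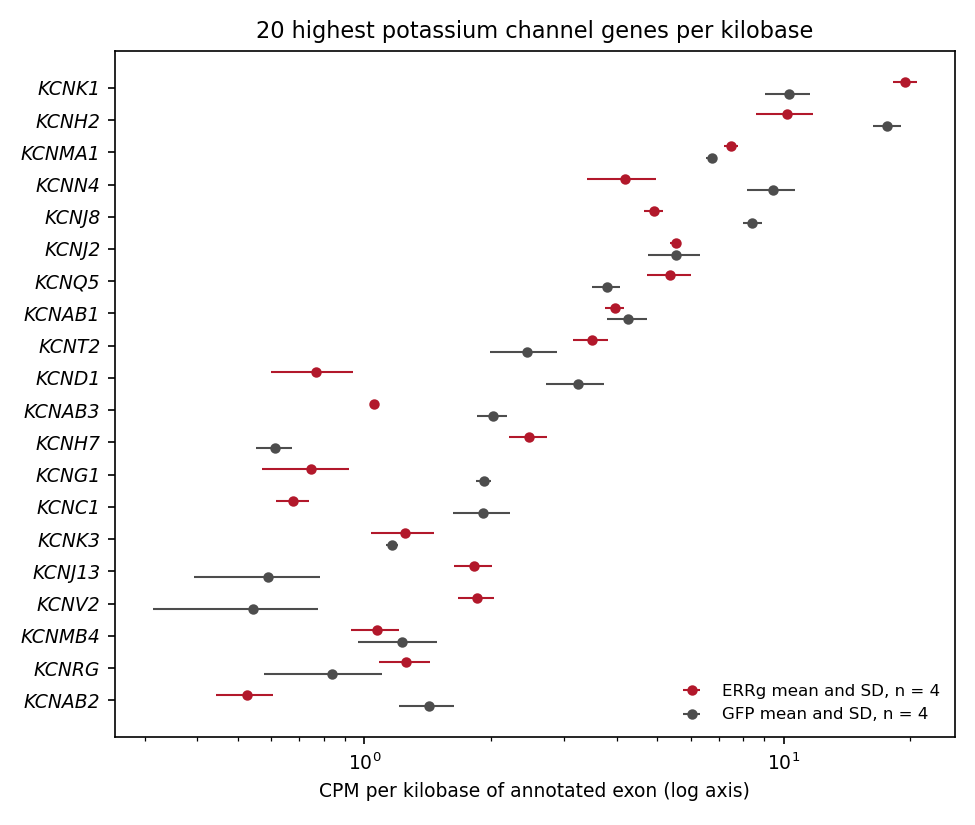
Mean CPM per kilobase of annotated exon (log axis) of the 20 most abundant members, ERRg above GFP for each gene, with bars of 1 SD (n = 4). KCNK1 leads in ERRg and KCNH2 in GFP. On this TMM scale KCNJ2 stands at the same level in both, while with upper-quartile factors or library totals it was called higher in ERRg.

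The 49 members that were not tested stayed at 19 reads or fewer in every library. In the voltage-gated class these included KCND3 (19 reads), KCNQ1 (15), KCNF1 (13), KCNQ3 (12) and KCNG4 (11), with KCNG2 (7), KCNS3 (6), KCNA2 (4), KCNA4 (2) and KCNA3 (1) below them. Among inward rectifiers these were KCNJ10 (18 reads), KCNJ5 (10), KCNJ12 (6), KCNJ4 (5), KCNJ1 (4), KCNJ16 (3), KCNJ6 (1) and KCNJ15 (1), and among two-pore genes KCNK5 (18), KCNK12 (16), KCNK13 (16), KCNK7 (13), KCNK15 (7), KCNK2 (6), KCNK4 (4) and KCNK18 (2). Auxiliary genes not tested were KCNE4 (12 reads), KCNE5 (9), KCNE1 (4), KCNMB1 (2), KCNE1B (1), KCNE2 (1) and KCNE3 (1), of which KCNE1 and KCNE1B are near-identical copies. The 14 members listed at 0 in all 8 libraries were KCNA1, KCNA5, KCNA6, KCNA10, KCNB2, KCNC2, KCND2, KCNH5, KCNV1, KCNJ18, KCNK10, KCNK16, KCNK17 and KCNU1. A count of 0 allows up to 0.123 CPM, for counting error only. Since TH and CHGA, genes in wide use in this cell type, are also listed at 0, a gene at 0 is not taken to lack the RNA. The exons of KCNA6 lie wholly within those of GALNT8, and KCNJ18 is a near-identical copy of KCNJ12.

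Genes outside the KCN family that assemble with, place or balance potassium channels were followed as a list of 44, of which 36 were tested. With TMM 13 were higher and 13 lower, against 38.7% and 35.9% of all genes. These shares include non-coding genes, while the 36 tested are coding. The offsets gave 14 higher and 13 lower (32.9% and 38.8% of coding genes), and in all 7 fits 8 were called higher and 4 lower (18.1% and 22.1%). The counts are not read as a property of the list. Besides ABCC8 and ABCC9, the adhesion molecule AMIGO1 was lower at -0.93 (SE 0.15) with TMM and not called with the offsets (-0.16). Among anchoring and regulatory genes, AKAP5, which tethers kinases to M-channels, had 21.6 ± 4.92 CPM in ERRg and 7.94 ± 0.505 CPM in GFP (log2 fold change 1.45, SE 0.14, and 1.08, SE 0.09, with the offsets). CALM3, 1 of the 3 genes for calmodulin, the calcium sensor of KCNN and KCNQ channels, had 122 ± 18.04 CPM in ERRg and 306 ± 24.3 CPM in GFP (-1.32, SE 0.10, and -0.32, SE 0.04). CNTNAP1 was lower at -1.12 (SE 0.10) with TMM and -0.19 (SE 0.05) with the offsets.

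HCN2 was the only gene tested among the HCN channels, relatives of the potassium channels that open on hyperpolarisation. It stood at 12.4 ± 1.94 CPM in ERRg and 21.3 ± 3.13 CPM in GFP and was called lower with TMM (-0.78) and higher with the offsets (0.59). The beta subunits of the sodium-potassium pump, which builds the gradient these channels use, differed in direction. ATP1B3 was lower at -0.44 (SE 0.08) with TMM and -0.53 (SE 0.05) with the offsets, and not called with upper-quartile factors (-0.14). ATP1B1 had 458 ± 20.7 CPM in ERRg and 241 ± 24.6 CPM in GFP (0.92, SE 0.09, and 1.24, SE 0.06, with the offsets), and ATP1B2 had 0.727 ± 0.295 CPM in ERRg and 3.17 ± 1.18 CPM in GFP (-2.13, SE 0.28, and -1.30, SE 0.26). Of the potassium-chloride cotransporters, SLC12A4 was lower with TMM (-1.03, SE 0.11) and not called with the offsets (-0.01).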

How the data were processed

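RNA from 8 libraries of SH-SY5Y cells was sequenced, 4 per group. The authors deposited 1 table of raw counts for 67060 genes, not normalised. A further 5 summary lines, which name no gene, were kept out of the totals and of every test. They gave the reads that fell outside exons (on average 46.7% in ERRg and 20.9% in GFP), ambiguous reads (5.44% in ERRg and 12.1% in GFP) and multiply aligned reads (6.41% in ERRg and 11.9% in GFP). Per the labels' protocols, ribosomal RNA was depleted and libraries were directional. The submitters' processing notes name HTSeq 0.11.3, STAR 2.7.8a, Trim Galore 0.6.6, CASAVA and DESeq2, and the build GRCh38. Neither the strand setting of the counting nor the annotation release is given in the sources used here, and 20 of the 48 tested members share exon bases with another gene.

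GENCODE release 29 (GRCh38) gave positions, gene types, span, length and GC content. KCNJ5-AS1, coding there and non-coding in RefSeq, was left out. Counts were tested with edgeR 4.0.16 (quasi-likelihood, robust, TMM, filterByExpr at 0.395 CPM in 4 libraries, two-sided, Benjamini-Hochberg adjustment over the 21993 genes tested, threshold 0.05) in R 4.3.3, on group alone. The second fit added per-library offsets from splines with 5 degrees of freedom on GC content, transcript length and gene span, for 13426 coding genes. Other fits used DESeq2 1.42.0, limma 3.58.1, other scalings, filters and thresholds, a replicate block, and each library left out in turn. The scripts were tested on simulated data. Library pairs within a group were checked and none was a duplicate.

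The members and lists were chosen with earlier results of these data known. Named genes were ESRRG, in each class the 4 tested members with the smallest p and the 2 with the highest CPM per kilobase, the 3 partner genes with the smallest p in each of 4 sublists, and members whose call turned with the offsets. The other members are described because they belong to the family, and were singled out after their values were seen. ATP1B3 is given beside the other listed beta subunits of the pump. Single values of 4 members are not reported here, and these members stay in the counts and sums.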

Additional observations from a re-analysis of the deposited data

Results flagged for a closer look

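In 6 of 76 groups of 4 libraries, 1 library lay farther from the rest than Dixon's 95% critical value allows, and chance alone flags about 1 group in 20. KCNK1 in ERRg had 77.5 CPM in replicate 1, against 67.6, 68.7 and 69.2 CPM in the others. KCNJ8 in ERRg had 13.1 CPM in replicate 3, against 11.7, 11.9 and 11.9 CPM. KCNK9 in GFP had 1.36 CPM in replicate 4, against 0.714, 0.724 and 0.756 CPM. KCNN4 in GFP had 38.2 CPM in replicate 2, against 29.3, 30.1 and 30.7 CPM. KCNAB1 in GFP had 33.9 CPM in replicate 3, against 27.5, 27.6 and 27.8 CPM. ATP1B2 in GFP had 4.93 CPM in replicate 2, against 2.53, 2.55 and 2.66 CPM. These libraries were spread over 5 of the 8, and leaving them out changed no call of these genes.

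Of 27 genes named after potassium channel genes that lie outside the comparison of coding members, 12 were tested by edgeR with TMM. Of these, 7 were higher in ERRg, 2 lower and 3 not called. Over all genes tested, coding and non-coding together, 38.7% were called higher and 35.9% lower. The shares among non-coding genes alone were not taken, so the counts are not read as a trait of these genes. For the higher ones the log2 fold changes were 2.09 for KCNH7-AS1, 1.98 for KCNMA1-AS3, 1.86 for KCNQ5-AS1, 1.85 for KCNMA1-AS2, 1.74 for KCNMA1-AS1, 1.27 for KCNMB2-AS1 and 0.62 for KCNQ1OT1. The lower ones were KCNK15-AS1 (-0.86) and KCNJ5-AS1 (-0.72), and those not called were KCNIP2-AS1, KCNJ2-AS1 and KCNQ5-DT. KCNMA1-AS3 had 20.6, 21.7, 20.1 and 22.2 CPM in ERRg libraries, against 6.39, 3.86, 4.53 and 6.75 CPM in GFP libraries, while KCNMA1, in whose span on the opposite strand it lies, was not called. The share of reads that fell outside the annotated exons was 46.7% ± 1.31 in ERRg and 20.9% ± 3.58 in GFP. With this share as a covariate, an alternative chosen after seeing the data, none of the 7 higher genes was called. Their log2 fold changes were then all below zero, from -3.86 (KCNQ5-AS1) to -0.19 (KCNMA1-AS2). The share does not overlap between the groups, so that fit cannot tell it apart from the group.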

How the results depend on the processing

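Of 48 tested members, 16 were higher and 24 lower with TMM. Against a log2 fold change of 1 these counts were 5 and 8, and with a GC offset alone 13 were lower. When the percentage of reads outside exons was a covariate, an alternative chosen after seeing the data, and one whose values do not overlap between the groups, edgeR called 0 members (5 at an unadjusted p under 0.05), 0 partner genes, and 6 genes higher and 2 lower of all. Leaving out 1 library gave 13 to 18 members higher and 22 to 25 lower, and within the offsets (chosen after seeing the data) 17 to 21 and 17 to 19. The 4 replicate numbers did not pair the libraries (correlations of same-numbered libraries 0.178, -0.42, -0.322 and -0.122), and with a replicate block 15 members were higher and 23 lower.

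Partner genes, 13 higher and 13 lower with TMM, numbered 20 higher with library totals, 2 and 2 against a log2 fold change of 1, and 8, 7 and 8 lower with upper-quartile factors, library totals and coding genes alone. Of all genes, 8514 higher and 7903 lower with TMM became 4412 and 5214 with the offsets, 4604 and 5127 with the GC offset, 4255 and 5042 with the replicate block and offsets, 1687 and 2299 against a log2 fold change of 1, and 5473 higher with coding genes alone. The fits restricted to coding genes tested fewer genes.

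The summed difference between groups moved with the scaling. For upper-quartile factors and library totals it was -38.3 and -23.7 CPM for voltage-gated, 51.96 and 57.1 CPM for two-pore, 6.38 and 10.2 CPM for inward rectifier, 77.7 and 99.1 CPM for calcium-activated, and -0.416 and 3.90 CPM for auxiliary genes. With DESeq2 size factors it was -0.882 CPM for calcium-activated and -16.6 CPM for auxiliary genes.

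Log2 fold changes that changed sign, with the offsets and with the replicate block and offsets, were those of KCNAB3 (0.031 and 0.036), KCNN4 (0.018 and 0.019), KCNT2 (-0.29 and -0.29), KCNMA1 (-0.33 and -0.33), KCNJ9 (0.071 and 0.082), KCNH2 (0.41 and 0.41), KCNJ14 (0.43 and 0.44), HCN2 (0.59 and 0.59) and ABCC9 (-0.069 and -0.060). With the GC offset alone KCNT2 was at -0.087, KCNH2 at 0.58, KCNJ14 at 0.32, HCN2 at 0.75 and SLC12A4 at 0.095. Upper-quartile factors, library totals and coding genes alone gave KCNAB1 0.20, 0.30 and 0.21 and KCNJ2 0.30, 0.40 and 0.31. KCNJ2 was at 0.012 with limma-voom and 0.0093 with the replicate block. With 1 library left out KCNJ2 ranged from -0.13 to 0.0013 and KCNK3 from -0.011 to 0.17. The causes of the changes with the GC offset and with the scalings were not tested.

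Low counts limit KCNJ11, KCNJ3, KCNS2, KCNMB2, KCNIP1, KCNH4 and KCNJ9, which reached the filter in 1 group alone.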
